A study of Homo sapiens with 7 samples.

Results

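The MTRNR2L genes are nuclear copies of MT-RNR2, the mitochondrial gene for the RNA of the large mitoribosomal subunit. The entries of an eIF3a contact list that overlapped 6 of them on the gene's strand are described here. The windows, on hg19, were selected on earlier results of this list, its reads and scores, so the presence and the height of their entries are a description and not a test. The list held 14 entries in these windows out of 4013 in all. The 14 entries were 14 separate read clusters, out of 3566 clusters on the primary chromosomes. Entries were found at 5 loci (MTRNR2L2, MTRNR2L8, MTRNR2L9, MTRNR2L1 and MTRNR2L3), and MTRNR2L10 had 0.

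The eIF3a data came from 2 replicates of PAR-iCLIP in HEK293T cells, a line of human embryonic kidney origin with the large T antigen of SV40. The cells had taken up 4-thiouridine for 8 h and were irradiated at 354 nm, and complexes were pulled down with an antibody against eIF3a. No heat shock or other treatment is given for these 2 samples. The other 5 samples, m6A libraries from heat-shocked HEK293T (1), heat-shocked HepG2 (2) and HepG2 controls (2), were not analysed here. The reads are in 1 table with no mark of their replicate, and whether it holds reads of 1 or both is not stated, so no value below has a replicate error. The depth of the libraries is unknown.

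eIF3 is the many-subunit initiation factor that recruits the small ribosomal subunit to mRNAs, and eIF3a is its largest subunit. Copies of mitochondrial DNA are scattered through the nuclear genome, and some keep long stretches close to the mitochondrial sequence. The MTRNR2L copies are named for reading frames that resemble humanin, a short peptide whose reading frame lies inside MT-RNR2. Because copies of one sequence resemble each other, a short read can align to several of them. RefSeq (GRCh38.p14) lists 13 MTRNR2L genes, all 13 as pseudogenes, and all 6 described here are among them. The positions of the other 7 on hg19 were not used here.

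Each cluster carried a coverage profile, which split exactly into reads of 25 nt, and the number of reads and their starts were taken from that split. The score of a cluster is its highest coverage, in reads. Every occupied start in the 14 clusters held 1 read, so a score could not exceed 25, and their reads equal their occupied start positions. The share of other clusters with 1 read per start is not given here. The highest score of all primary clusters was 24, so scores under that limit were not particular to these loci. Clusters are numbered from the 5′ end of each locus, and positions are given with the first and last listed base, counting from 1. Listed intervals were 1 nt shorter than their profiles even where complete, so these ends are uncertain by 1 nt.

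MTRNR2L8 held the most reads of the 6 loci. Its 4 clusters on the minus strand of chromosome 11, between 10529774 and 10530346, held 146 reads over 477 nt of profile, or 30.6 reads per 100 nt. MTRNR2L2 had more clusters and fewer reads: 7 clusters on the minus strand of chromosome 5, between 79945906 and 79946800, held 122 reads over 557 nt, or 21.9 per 100 nt. MTRNR2L9, on the plus strand of chromosome 6, had a single cluster at 62284022 to 62284156, with 53 reads over 136 nt, or 39.0 per 100 nt. The remaining loci were sparse. MTRNR2L1, a plus-strand locus of chromosome 17, had 8 reads in 1 cluster at 22022640 to 22022686. MTRNR2L3, a minus-strand locus of chromosome 20, had 7 reads in 1 cluster at 55934221 to 55934264. The window of MTRNR2L10, 1151 nt on the minus strand of chromosome X, had 0 entries on either strand, and the nearest listed cluster of that chromosome lay 1758178 nt away. What the list was filtered on is not stated in the labels or the file, so unlisted contact there is possible. No window held an entry on the strand opposite to its gene.

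The 14 clusters had a median of 18 reads (range 5 to 53), against a median of 6 (range 2 to 172) in the 3552 other primary clusters. Their median score was 13.5, against 5 in the rest. Their median density was 24.8 reads per 100 nt, against 10.7 in the rest. A score of 20 or more was reached by 3 of the 14, against 1.04% of all primary clusters. These were MTRNR2L8 clusters 2 and 3 and the MTRNR2L9 cluster, all with a score of 22, tied for the fourth highest score of the list. Together the 14 clusters made up 0.393% of the primary clusters and 0.875% of the 38419 reads in them. As the windows were chosen with such values in view, the figures place the loci in the list and support no difference from it.

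**Figure D1:**
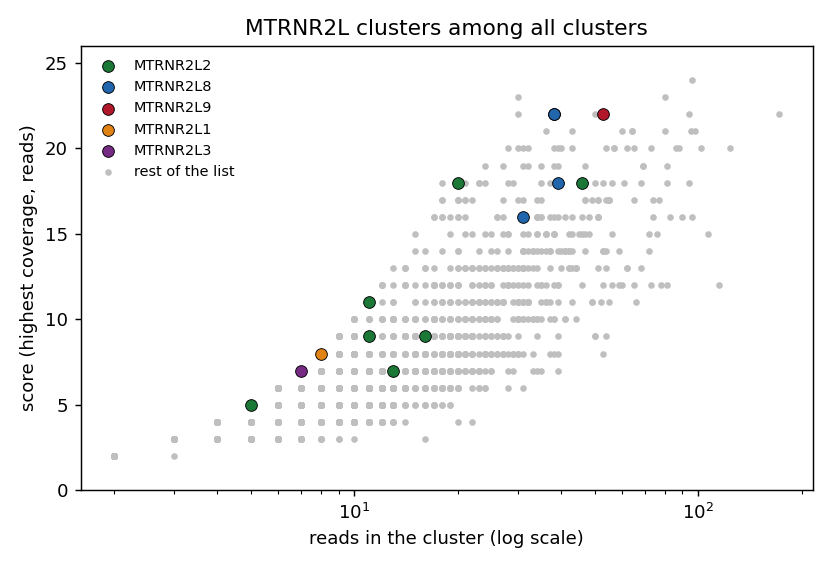
Reads per cluster (horizontal, log scale) against score, the highest coverage in reads (vertical), for every cluster on the primary chromosomes; coloured points are the 14 MTRNR2L clusters and grey points the other 3552. The MTRNR2L9 point and the overlapping points of MTRNR2L8 clusters 2 and 3 lie at a score of 22, and the points of MTRNR2L1 (8 reads) and MTRNR2L3 (7 reads) lie near the lower edge.

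Along MTRNR2L2 the reads were uneven. Cluster 3, at 79946319 to 79946477, held 46 of the 122 reads in a profile of 160 nt and had 2 summits. Cluster 6, at 79945932 to 79945984, reached the same score of 18 with 20 reads in 54 nt. Cluster 4, at 79946215 to 79946252, was the lowest, with 5 reads and a score of 5. The remaining clusters 1, 2, 5 and 7 held 16, 11, 13 and 11 reads, with scores of 9, 9, 7 and 11. MTRNR2L8 was more even: its clusters 1 to 4 held 39, 38, 38 and 31 reads, with scores of 18, 22, 22 and 16. In MTRNR2L8 cluster 2, at 10530059 to 10530177, 19 adjacent positions each held a read start, the longest such row in the 14 clusters.

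Parts of these loci carried the same read starts. The longest identical stretch joined the 5′ ends of MTRNR2L2 cluster 3 and MTRNR2L8 cluster 1. Over 77 nt, both loci had starts at the same 26 positions and at no other. MTRNR2L8 cluster 1 had its summit of 18 within the reads of that stretch, and MTRNR2L2 cluster 3 had its first summit, also 18, at the same place. By the rule used for the whole list, an identical stretch of 40 nt with 10 to 30 starts, these were 2 of the 8 MTRNR2L clusters that could be searched. In the list as a whole 33 of 667 searchable clusters met that rule, or 4.95%. That search covered all 3604 clusters, including those outside the primary chromosomes.

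The order of the identical stretches of at least 20 nt was the same along both loci. A shorter one, given below, did not follow that order. In MTRNR2L2 the 5′ end of cluster 5 lay 352 nt from that of cluster 3, and in MTRNR2L8 the 5′ end of cluster 3 lay 352 nt from that of cluster 1. There the loci again had identical starts, 10 of them over 35 nt. A further stretch of 22 nt with 11 starts began 557 nt from the first in MTRNR2L2, in cluster 7, and 558 nt from it in MTRNR2L8, in cluster 4. Length alone does not mark the shorter stretches as copies. With a rule of 30 nt, which 7.28% of searchable clusters met, a minus-strand cluster of chromosome 11 at 118888995 to 118889057 matched 34 nt and 14 starts of MTRNR2L2 cluster 3 and MTRNR2L8 cluster 1. Another, a plus-strand cluster of chromosome 17 at 7476114 to 7476159, matched 34 nt and 12 starts of MTRNR2L2 cluster 3. For the 35-nt stretch, the equal spacing of 352 nt is a further measurement. For the 22-nt stretch the spacing depends on which part of 2 shortened clusters was listed, as described below, and another alignment of that pair matched 10 starts, 66.7% of the positions occupied at either.

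The spacing gave a common frame for the loci, counted in nt 3′ of the 5′-most listed base of MTRNR2L2, with MTRNR2L8 cluster 4 moved by the 1 nt. The MTRNR2L9 cluster entered the frame through MTRNR2L8 cluster 3, whose first start lay 10 nt upstream of its own. The plot of coverage along this frame shows where the loci were listed together and where one was listed without the others.

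**Figure D2:**
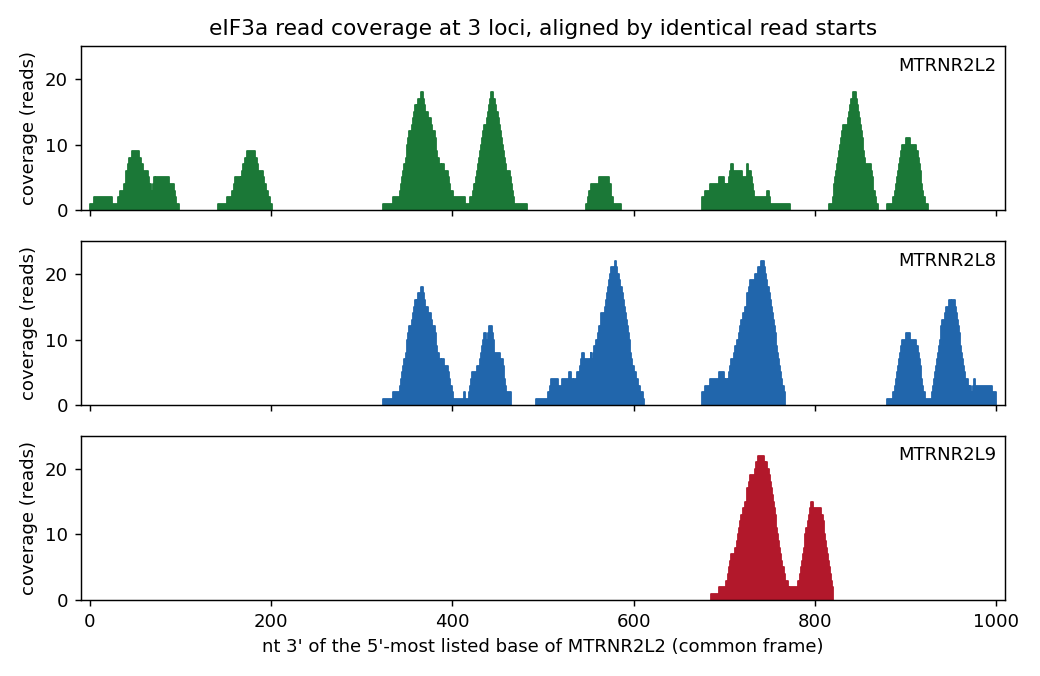
Read coverage (vertical, in reads) of MTRNR2L2, MTRNR2L8 and MTRNR2L9 along the common frame (horizontal, nt 3′ of the 5′-most listed base of MTRNR2L2), each filled shape being 1 cluster drawn at its full profile. MTRNR2L2 and MTRNR2L8 have the same first summit of 18 near 366 nt, MTRNR2L8 and MTRNR2L9 the same summit of 22 near 741 nt, where the coverage of MTRNR2L2 is 2.

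MTRNR2L9 and MTRNR2L8, both among the clusters with a score of 22, had most of the read starts under that summit at the same aligned positions. MTRNR2L8 cluster 3, at 10529903 to 10529994, and the MTRNR2L9 cluster were both listed over 59 start positions. There, 34 positions held a start at both loci, 1 at MTRNR2L9 only, 1 at MTRNR2L8 only, and 23 at neither. The positions in both were 94.4% of those occupied at either, against 63.4% at the next-best alignment of these clusters. Dense starts match in part at any alignment, which is why that second value is not small. Of the 53 reads of MTRNR2L9, 34 (64.2%, 95% Wilson interval 50.7 to 75.7, counting error only) began at a position that MTRNR2L8 also held. The summits overlapped, at 741 to 743 nt in MTRNR2L8 and 738 to 743 nt in MTRNR2L9. The 2 scores of 22 therefore rest largely on starts at the same aligned positions, and whether they are the same reads was not tested.

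MTRNR2L2 held only part of the starts in that region. Its cluster 5, at 79946029 to 79946125, had 13 reads, of which 12 began where MTRNR2L8 had a start and 9 where MTRNR2L9 had one. All 9 were positions held by all 3 loci. The whole clusters matched poorly: positions in both were 31.6% of those occupied at either for MTRNR2L8 and MTRNR2L2, against 29.0% at their next-best alignment. For MTRNR2L9 and MTRNR2L2 they were 23.7%, below the 36.8% of another alignment, so the placement of MTRNR2L2 here rests on the identical 35 nt and their spacing. At 741 nt of the frame the coverage was 2 reads in MTRNR2L2, 22 in MTRNR2L8 and 22 in MTRNR2L9. MTRNR2L8 cluster 3 had 3 starts upstream of the first start of MTRNR2L9, and all 3 were held by MTRNR2L2. Of its 38 reads, 37 therefore began at a position that MTRNR2L2 or MTRNR2L9 also held.

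**Figure D3:**
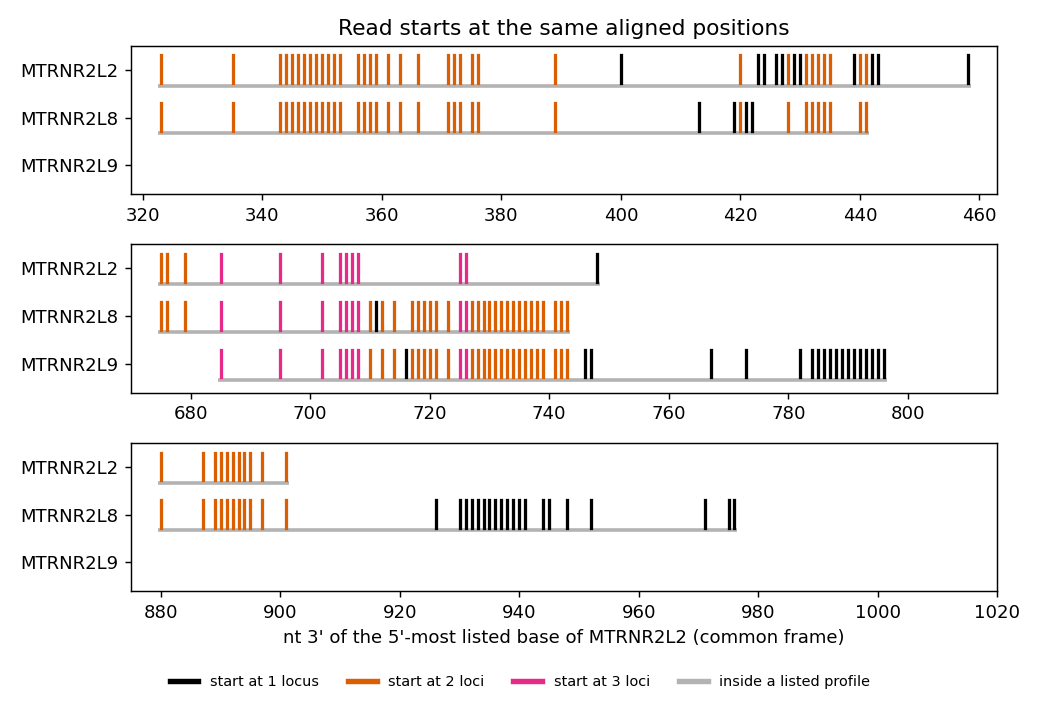
Read starts (vertical ticks, 1 read each) of MTRNR2L2, MTRNR2L8 and MTRNR2L9 in 3 parts of the common frame (horizontal, nt), with grey bars under the positions inside a listed profile. Orange ticks are held by 2 loci, pink ticks by all 3 and black ticks by 1; the identical stretches of 26, 10 and 11 starts between MTRNR2L2 and MTRNR2L8 open the 3 panels.

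The shared stretches ended inside clusters, and the loci then differed. Past the 77-nt stretch, MTRNR2L2 cluster 3 had 20 further reads and MTRNR2L8 cluster 1 had 13. Of these, 9 began at the same position. MTRNR2L2 reached a second summit of 18 in that part, and MTRNR2L8 reached 12. MTRNR2L9 continued past the end of MTRNR2L8 cluster 3 with 18 more reads, which rose to a coverage of 15. With MTRNR2L8 cluster 4 placed as described below, neither MTRNR2L8 nor MTRNR2L2 had a start at any of those 18 positions. The other placement given there would put starts of MTRNR2L8 cluster 4 on some of them. MTRNR2L8 cluster 4 continued past the 22-nt stretch with 20 further reads and reached its summit of 16 there. Its shared part reached 11, the score of MTRNR2L2 cluster 7. In the frame no other locus held those 20 starts. At a different alignment some of them, under the summit, matched starts of another MTRNR2L2 cluster, as given below.

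Other clusters shared few or no starts within the frame. MTRNR2L2 clusters 1, 2 and 6 held 47 reads and shared none with the other loci in the frame. At a different alignment, cluster 6 matched part of MTRNR2L8 cluster 4. Cluster 6 had starts at 816 nt and at 820 to 831 nt, and MTRNR2L8 cluster 4 at 926 nt and at 930 to 941 nt. Together these starts gave a coverage of 13 reads, at 831 nt in cluster 6 and at 941 nt in MTRNR2L8 cluster 4. The 22-nt stretch described above held fewer starts, 11. The stretch matched by cluster 6 was under the 20 nt required, and whether its reads are shared was not tested. Cluster 2 gave the longest match of MTRNR2L1, which is not in the frame. MTRNR2L8 cluster 2, with its score of 22, lay over MTRNR2L2 cluster 4, yet only 2 starts fell at the same positions, 18.2% of those occupied at either. Another alignment of those clusters matched 3 of 5 occupied positions, a larger share. Whether the 2 starts are shared reads cannot be told from their positions, and they are included in the counts of shared starts below. The other 36 reads of MTRNR2L8 cluster 2 began at positions that neither MTRNR2L2 nor MTRNR2L9 held (a copy that was not listed could not be detected).

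**Figure D4:**
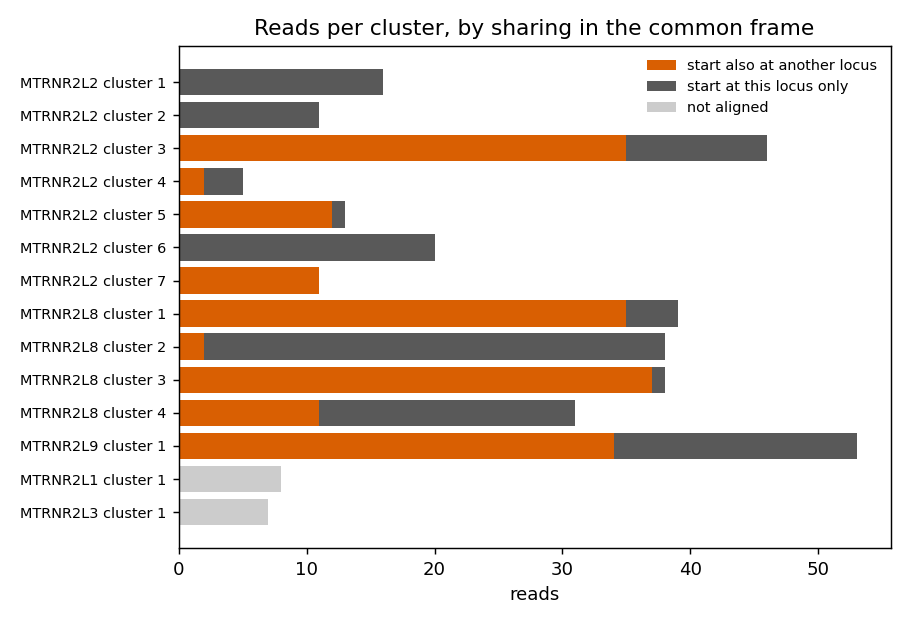
Reads per cluster (horizontal) for the 14 clusters, ordered by locus and from 5′ to 3′. Orange marks reads whose start was also held by another locus in the common frame, and dark grey those held by 1 locus of the frame. Light grey marks the clusters of MTRNR2L1 and MTRNR2L3, which were not placed in the frame. Within the frame, all 11 reads of MTRNR2L2 cluster 7 have a start also held by another locus, and no read of MTRNR2L2 clusters 1, 2 and 6 does.

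Over the frame, MTRNR2L2 shared 60 of its 122 starts with MTRNR2L8 (49.2%, Wilson interval 40.5 to 57.9), 58 of them in clusters joined by an identical stretch. The 26 starts of the 77-nt stretch, which set the frame, and the 11 of the 22-nt stretch, moved by 1 nt to match, were fixed by the alignment. The MTRNR2L9 cluster was likewise placed by its match with MTRNR2L8. All counts of shared or distinct positions given here include these matches. For MTRNR2L8, 85 of 146 starts (58.2%, interval 50.1 to 65.9) were held by MTRNR2L2 or MTRNR2L9. Both intervals treat each start as independent, although shared starts came in blocks, so they are too narrow. These 3 loci listed 321 reads at 227 distinct frame positions: 142 positions were held by 1 locus, 76 by 2 and 9 by all 3. Counting each position once, the 336 reads of the 5 loci came to 242, which includes the 15 reads of MTRNR2L1 and MTRNR2L3. Equal positions do not prove equal reads, because the list holds no read names, and dense rows of starts can coincide.

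The clusters of MTRNR2L1 and MTRNR2L3 were not placed in the frame. Neither had an identical stretch of at least 20 nt with 6 or more starts at another locus. The longest match of MTRNR2L1 within the family, 6 of its 8 starts against MTRNR2L2 cluster 2, was equalled by 3 of the 3552 clusters outside it and passed by none. That match is an unbroken run. At the same alignment a further start of MTRNR2L1 coincided with one of MTRNR2L2, at 152 nt of the frame. Whether these are shared reads was not tested. The longest match of MTRNR2L3, 5 of its 7 starts against MTRNR2L9, was equalled or passed by 109.

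Of the 14 clusters, 2 were listed shorter than their profile by more than 1 nt, against 41.4% of all primary clusters. The listed parts of these 2 were of the same length. MTRNR2L2 cluster 7 was listed at 79945906 to 79945920 and MTRNR2L8 cluster 4 at 10529774 to 10529788, 15 nt in each case, although their profiles were 46 and 121 nt long. The listed 15 nt were taken as the 5′ part in both. With that reading the identical stretch began 1 nt apart in the frame set by the other stretches, whereas reading the listed part as the 3′ end would put it 74 nt apart. The 3′ reading would also start the profile of MTRNR2L2 cluster 7 at 849 nt, inside that of cluster 6, a separate cluster at 816 to 869 nt. In MTRNR2L8 it would start the profile of cluster 4 at 775 nt, past the end of cluster 3 at 767 nt. There, starts of its 22-nt stretch would fall on MTRNR2L9 starts at 782, 784 to 790, 792 and 796 nt. Neither a 5′ reading in 1 locus with a 3′ reading in the other nor an inner listed part was examined. The placement 1 nt apart was the one used, so it does not support the 22-nt stretch independently. On that reading, 8 reads began within the listed part of each, and 3 more in MTRNR2L2 and 23 more in MTRNR2L8 began beyond it. The summit of MTRNR2L8 cluster 4 would then lie outside its listed interval, where the listed part reached a coverage of 8. No entry of either locus lay further 3′, although the windows went on for 106 nt in MTRNR2L2 and 374 nt in MTRNR2L8. The other 12 clusters were listed in full.

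The mitochondrial genome had 0 entries in the list. Whether it was part of the alignment, and how reads with several matches were treated, are not stated in the labels or the file. The reads at these loci can therefore not be told apart from reads of the mitochondrial RNA, and which of the copies a shared read came from was not tested.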

How the data were processed

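The authors deposited the eIF3a PAR-iCLIP data as 1 list of stranded intervals, each with a signal and the coverage along its cluster. That signal was a whole number of reads, not normalized, and in all 4013 entries it was the peak of the deposited coverage. Per the submitters' processing notes, reads were aligned to hg19 with Bowtie, with no version named. The sources used here do not give the caller, the filters or the treatment of duplicate or multiply aligned reads.

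A read length was fitted to the coverage profiles: all 3113 distinct ones were sums of 25-nt reads, and 0 could be split at any other length from 20 to 30 nt. The splitting and the search for identical stretches were tested on simulated data. Entries of 1 chromosome, strand and profile that fit within the profile's length were counted as 1 cluster, giving 3604 clusters, 3566 of them on the primary chromosomes. Profiles were read 5′ to 3′ on their strand, and starts were compared at every offset. Loci were aligned by their identical stretches (at least 6 starts and 20 nt). The genes described were all loci of the rule, and the loci and the comparisons were chosen with earlier results of these data known. Intervals are 95% Wilson intervals, which treat each start as independent and leave out the choice of the alignment. No test between loci or samples was run. Calculations used Python 3.11.15, numpy 2.4.6 and scipy 1.17.1, and plots matplotlib 3.10.9. No hg19 sequence or annotation was used.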

Additional observations from a re-analysis of the deposited data

How the results depend on the processing

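The alignment of loci by their identical stretches, the count of each aligned position once and the next-best alignment were added after seeing the data; the other alternatives were planned. The number of loci with entries stayed at 5 and the reads at 336 with windows widened by 1000 nt. Both also stayed when clusters under the list's median score of 5 were left out. The loci stayed at 5 with either strand, and the reads at 336 with each distinct profile counted once. These alternatives could not change the values. The lowest score of the 14 clusters was 5, their profiles differed, no window held an entry on the other strand, and the nearest other cluster lay 3365 nt from a window. Clusters with shared starts numbered 2 under all 4 stretch rules, and 7 when identical stretches of at least 20 nt with 6 or more starts at aligned positions were counted. The rise follows from admitting shorter stretches. Distinct reads were 310 with 40-nt or 60-nt stretches counted once, 311 with 30 nt, and 242 with every aligned position counted once. Starts of MTRNR2L9 held by MTRNR2L8 numbered 34, 35 when 1 nt of difference was allowed, and 26 at the next-best alignment. Those of MTRNR2L2 held by MTRNR2L8 numbered 60, and 66 with 1 nt allowed. No paired analysis was possible because no read is tied to a replicate. Library depth is unknown, and the small clusters of MTRNR2L1 and MTRNR2L3 did not meet the rule for alignment.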
